A study of Bos taurus with 32 samples.

Results

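The miR-23, miR-24 and miR-27 miRNAs were examined in bovine fat. They were taken as every miRNA of the array named bta-miR-23a, bta-miR-23b, bta-miR-24, bta-miR-27a or bta-miR-27b, with or without a -3p or -5p ending (the arm of the hairpin), and 8 of the 672 miRNAs on the array fitted this rule: bta-miR-23a, bta-miR-23b-3p, bta-miR-23b-5p, bta-miR-24, bta-miR-24-3p, bta-miR-27a-3p, bta-miR-27a-5p and bta-miR-27b. Total RNA from the subcutaneous fat (backfat) and visceral fat of 16 Hereford and Aberdeen Angus cross steers was labelled with Cy3 and hybridized to custom Agilent arrays, 1 array for each of 32 samples. Steers received a Control diet or a High fat diet, in which flaxseed raised the fat content, until slaughter at about the same age. This gave 4 groups of 8 arrays, Control subcutaneous, Control visceral, High fat subcutaneous and High fat visceral, in which both depots came from the same animals. The samples were whole frozen fat, a mixture of cell types.

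The miRNAs are transcribed from a pair of paralogous clusters. In the RefSeq annotation of the cattle assembly ARS-UCD2.0, MIR23A, MIR27A and MIR24-2 neighboured each other with 0 other genes between them, and so did MIR23B, MIR27B and MIR24-1 on another chromosome. The mature miR-24 of both clusters is the same molecule, whereas miR-23a and miR-23b, and likewise miR-27a and miR-27b, are close relatives that differ little in sequence. MiR-27 is known as a brake on fat cell formation because it represses PPARG, the transcription factor that drives adipocyte differentiation. MiR-23 is known for its part in glutamine metabolism and blood vessel growth, and miR-24 for its part in the cell cycle. Cross-hybridization between the close relatives was not tested.

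Arrays of the High fat diet were much brighter than those of the Control diet. The 75th percentile of intensity over the 91 miRNAs detected on all 32 arrays ranged from 115 to 480 in the Control diet and from 626 to 2823 in the High fat diet, a ratio of 5.89 between the medians, while the labelling spike-in RNA had a median ratio of 0.847. Each group lay on a slide of its own and each diet was scanned in its own session, so group cannot be told apart from slide, nor diet from scan session. Some cell type markers differed between diets as well. Endothelial miR-126, the only miRNA of its list, ranged from 0.578 to 2.42 times the array's 75th percentile in the Control groups and from 3.45 to 7.96 in the High fat groups. The sum of the smooth muscle and pericyte markers (2 of 2 detected in every group) overlapped between diets. It lay between 0.767 and 2.73 in the Control diet and between 0.895 and 3.31 in the High fat diet. Singly they differed: miR-143, detected on 21 of 32 arrays, had log2 diet differences of 2.73 in subcutaneous and 2.66 in visceral fat. Those of miR-145 were -0.12 and -0.01. Of 7 epithelial markers on the array 0 were detected in either Control group, and those of the High fat groups summed to between 0.0139 and 0.0379. The summed markers of skeletal muscle (5 miRNAs) reached 0.133 in the Control diet and 0.228 in the High fat diet, those of erythrocytes (3 miRNAs) 0.368 and 0.135, those of leukocytes (3 miRNAs, of which 1 was detected in each Control group) 0.3005 and 0.926, and the liver marker miR-122 was at 0 on most arrays and reached 0.277 and 0.427. The erythrocyte markers also went different ways, miR-451 by log2 differences of 2.87 and 2.64 and miR-486 by -2.61 and -2.56. So did the 2 leukocyte markers that were tested. MiR-142, detected on 16 of 32 arrays, had differences of 4.24 and 4.08, and miR-223 had 0.10 and -0.72. The part of brightness and of these markers in the results for the clusters was not tested. In whole tissue fewer cells of a type and less RNA per cell cannot be told apart.

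Of the 8 miRNAs, 4 were detected on every array: bta-miR-23a, bta-miR-23b-3p, bta-miR-24-3p and bta-miR-27b. The miRNAs from the opposite arms, bta-miR-23b-5p and bta-miR-27a-5p, were detected on 0 arrays. Bta-miR-27a-3p was detected on 7 of 8 Control subcutaneous and 4 of 8 Control visceral arrays, and on 8 of 8 in each High fat group. The entry named bta-miR-24, listed apart from bta-miR-24-3p and much dimmer, was detected on 0 of 8 arrays in each Control group, on 8 of 8 High fat subcutaneous arrays and on 7 of 8 High fat visceral arrays. The remaining 6 miRNAs were among the 233 that could be tested. Levels below are log2 scaled intensities, the log2 of a miRNA's summed intensity divided by the 75th percentile of its array, so that 0 is the level of that percentile. The sign of the diet difference in this level turned under at least 1 other scaling for bta-miR-23a, bta-miR-23b-3p, bta-miR-24-3p and bta-miR-27b, while the differences between miRNAs of the same array need no scaling.

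**Figure D1:**
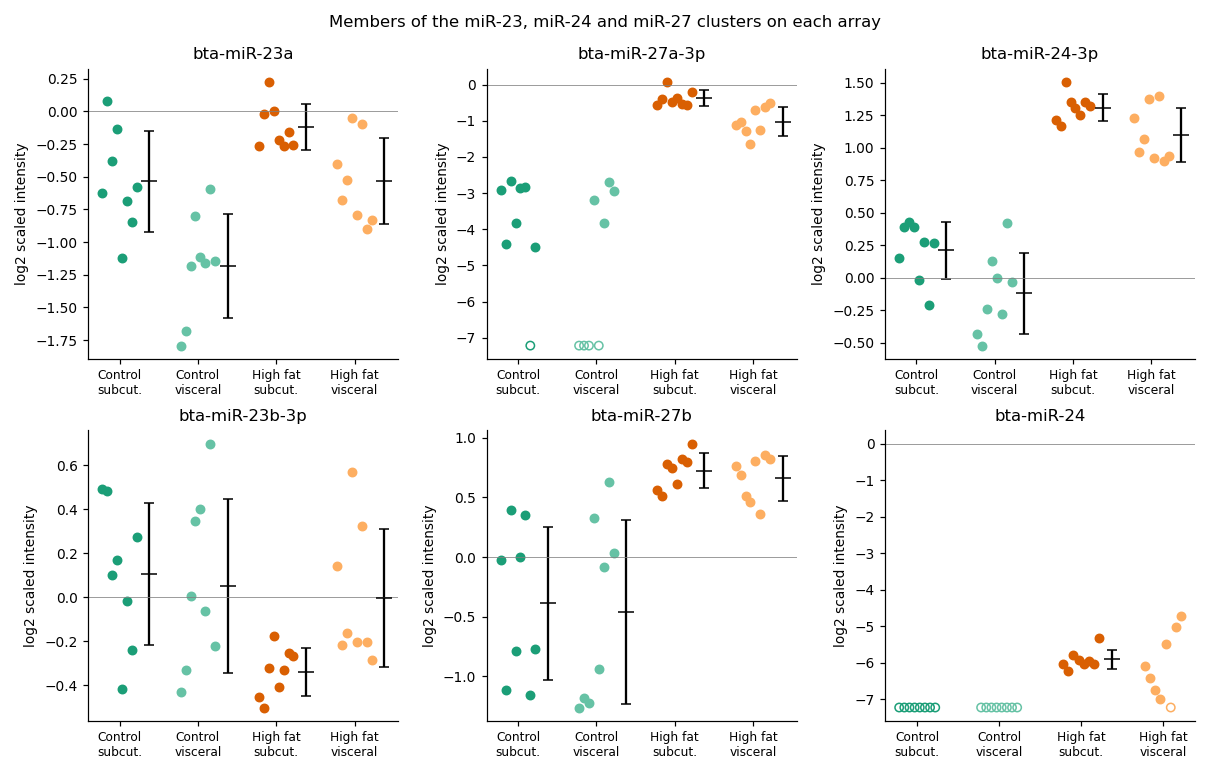
Log2 scaled intensity of the 6 tested miRNAs on each of 32 arrays, by diet and depot. Filled points are detected values, open points are arrays without detection set to the common floor of -7.22, and bars give the mean and SD of groups detected on all 8 arrays. Bta-miR-27a-3p and bta-miR-24-3p of the High fat groups lay above every Control array, whereas bta-miR-23b-3p overlapped between diets.

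The miR-27 pair was higher in the High fat diet with this scaling. Bta-miR-27a-3p had a lowest, median and highest level of -4.50, -2.90 and -2.65 on the 7 Control subcutaneous arrays that detected it, and of -0.56, -0.44 and 0.08 in High fat subcutaneous fat. The diets did not overlap. In visceral fat the detected levels were -3.82, -3.07 and -2.71 on 4 Control arrays and -1.65, -1.07 and -0.49 on 8 High fat arrays, again without overlap. With undetected arrays at their own detection limit, bta-miR-27a-3p was 9.50-fold higher in subcutaneous fat and 9.77-fold higher in visceral fat. These folds were not tested. The limma fit, with undetected arrays at the common floor, gave log2 differences of 3.53 (adjusted p = 1.68e-05) and 4.17 (adjusted p = 1.19e-06). With normexp background correction its log2 difference was much smaller, 1.17 and 0.54, and still called (adjusted p = 1.01e-10 and 0.000218). This setting adds an offset of 50 to every spot before the log2, which draws dim values together. Where detected, the summed intensity of bta-miR-27a-3p was 8.52 to 76.3 in Control subcutaneous and 10.1 to 39.2 in Control visceral fat. The part of the offset was not tested. The difference of the fit with the common floor ranked 14 from the highest of 233 in subcutaneous fat and 6 in visceral fat.

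Bta-miR-27b, from the other cluster, changed less. Its lowest, median and highest levels were -1.16, -0.40 and 0.40 in Control subcutaneous fat against 0.51, 0.76 and 0.95 in High fat subcutaneous fat, which did not overlap. In visceral fat they were -1.26, -0.51 and 0.63 against 0.36, 0.73 and 0.86, and the groups overlapped. The log2 differences were 1.11 (SE 0.253, adjusted p = 0.000232) and 1.12 (SE 0.253, adjusted p = 0.000199), and they ranked 76 and 77 of 233. Both probes of bta-miR-27b gave nearly the same differences, 1.11 and 1.12 in subcutaneous and 1.09 and 1.18 in visceral fat.

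Levels of bta-miR-27b had a larger SD among Control steers, a difference in spread that was not tested. The SD was 0.640 in Control subcutaneous and 0.772 in Control visceral fat, compared with 0.147 and 0.189 in the High fat groups. Control subcutaneous arrays fell into those of steers 108, 209, 307 and 308, between -0.03 and 0.40, and those of steers 111, 211, 405 and 410, between -1.16 and -0.77. In visceral fat it was steers 211, 308, 405 and 410 that lay high, between -0.08 and 0.63, and steers 108, 111, 209 and 307 that lay low, between -1.26 and -0.94. Thus steer 308 lay high and steer 111 low in both depots, and the other 6 steers changed sides. The 4 visceral arrays with low bta-miR-27b were the 4 on which bta-miR-27a-3p was not detected, and the subcutaneous array without bta-miR-27a-3p, of steer 405, had the lowest bta-miR-27b of its group. These visceral arrays were dim, with 75th percentiles between 138 and 168, against 245 to 301 for steers 211, 405 and 410. That of steer 308, which lay high, was as dim at 142. Subcutaneous 405 was the dimmest array, at 115. The part of brightness in this was not tested.

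The paralogs were compared next on the same array. Bta-miR-27a-3p minus bta-miR-27b, in log2 intensity, ranged from -3.85 to -2.85 in Control subcutaneous fat (median -3.12) and from -1.35 to -0.70 in High fat subcutaneous fat (median -1.13). In visceral fat it lay between -4.60 and -2.97 (median -3.85) on Control arrays and between -2.11 and -1.32 (median -1.67) on High fat arrays. The diets overlapped in neither depot. Bta-miR-27a-3p thus stood higher relative to bta-miR-27b in the High fat diet. The shift was 2.14 (95% interval 1.81 to 2.47, exact permutation p = 0.000155, adjusted p = 0.000281) in subcutaneous fat. It was 2.17 (1.69 to 2.64, exact permutation p = 0.000155, adjusted p = 0.000294) in visceral fat. Of all pairs of miRNAs, 40.2% and 42.3% had a diet difference at least as large. On arrays that detected both, the values were 2.05 and 1.71. With normexp background correction and its offset of 50, the differences were 0.17 and -0.36 and were no longer called. The offset weighs most on dim values, such as those of Control bta-miR-27a-3p, and its part was not tested.

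The diets also differed in the balance of the miR-23 pair. Bta-miR-23a had lowest, median and highest levels of -1.12, -0.60 and 0.08 in Control and -0.26, -0.19 and 0.23 in High fat subcutaneous fat. In visceral fat they were -1.79, -1.15 and -0.60 in Control and -0.90, -0.60 and -0.05 in High fat steers. The diets overlapped in both depots. The log2 differences were 0.42 (SE 0.167, adjusted p = 0.0252) and 0.65 (SE 0.167, adjusted p = 0.000890). The first was lost when the Control subcutaneous array of steer 307 or 405 or the High fat subcutaneous array of steer 202 was left out (adjusted p up to 0.0704).

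Bta-miR-23b-3p went the other way in subcutaneous fat. Its lowest, median and highest levels were -0.42, 0.13 and 0.49 in Control and -0.50, -0.33 and -0.18 in High fat subcutaneous fat, with overlap, and the log2 difference was -0.44 (SE 0.153, adjusted p = 0.0101). In visceral fat they were -0.43, -0.03 and 0.70 against -0.29, -0.18 and 0.57, and the difference of -0.06 did not pass (95% interval -0.37 to 0.26, adjusted p = 0.794).

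On the same array, bta-miR-23a minus bta-miR-23b-3p ranged from -1.11 to -0.31 in Control subcutaneous fat (median -0.64) and from 0.01 to 0.55 in High fat subcutaneous fat (median 0.18). In visceral fat the ranges were -1.51 to -0.92 (median -1.24) and -0.69 to -0.37 (median -0.55). No High fat array reached down to the Control arrays of its depot. The diet difference was 0.86 (95% interval 0.62 to 1.11) in subcutaneous and 0.70 (0.54 to 0.86) in visceral fat, each with an exact permutation p of 0.000155, the smallest that 8 arrays against 8 can give. Shifts of this size were common, as 73.0% and 76.9% of all pairs of miRNAs had a diet difference at least as large. The miR-23a and miR-27a-3p of one cluster were therefore both higher in the High fat diet relative to their paralogs of the other cluster, with the exception of the normexp values given for miR-27a-3p.

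**Figure D2:**
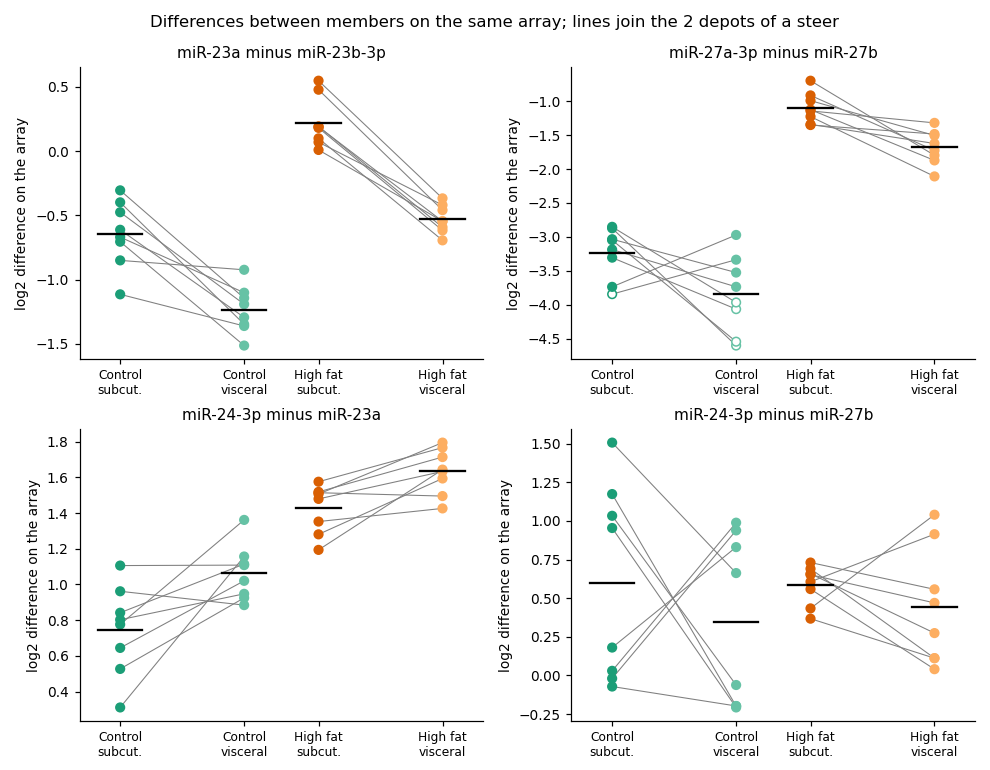
Difference in log2 intensity between 2 miRNAs of the same array, by diet and depot, for 4 pairs. Points are arrays, open where 1 of the 2 was not detected and entered at the detection limit, bars are group means and lines join both depots of a steer. MiR-23a minus miR-23b-3p fell from subcutaneous to visceral fat in 8 of 8 steers of each diet, and miR-24-3p minus miR-27b showed no shift between diets.

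Bta-miR-24-3p, the product that both clusters share, was higher in the High fat diet with the scaling used here. Its lowest, median and highest levels were -0.21, 0.27 and 0.43 in Control and 1.17, 1.31 and 1.51 in High fat subcutaneous fat, and -0.52, -0.13 and 0.42 in Control and 0.90, 1.02 and 1.40 in High fat visceral fat. The diets did not overlap in either depot. The log2 differences were 1.10 (SE 0.117, adjusted p = 6.93e-10) and 1.22 (SE 0.117, adjusted p = 7.54e-11), so the smallest standard errors of the 6 miRNAs belonged to bta-miR-24-3p.

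Its diet difference lay above that of bta-miR-23a and close to that of bta-miR-27b. Bta-miR-24-3p minus bta-miR-23a was higher in the High fat diet by 0.68 (95% interval 0.47 to 0.90) in subcutaneous and 0.57 (0.41 to 0.72) in visceral fat, each with exact permutation p = 0.000155. Bta-miR-24-3p minus bta-miR-27b differed between diets by -0.01 (-0.54 to 0.53, exact permutation p = 0.961) and 0.10 (-0.42 to 0.61, exact permutation p = 0.687). These intervals still held differences of about 0.5 in either direction. Within the clusters, bta-miR-27b minus bta-miR-23b-3p was higher in the High fat diet by 1.55 (0.98 to 2.17) and 1.18 (0.57 to 1.77, exact permutation p = 0.00155), and bta-miR-27a-3p minus bta-miR-23a by 2.83 (1.90 to 3.76) and 2.64 (1.70 to 3.58). With normexp correction the latter pair gave 0.87, which was still called, and 0.29, which was not (adjusted exact permutation p = 0.223).

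The dim entry bta-miR-24 could be given only as a bound. Its detected levels ran from -6.21 to -5.31 in High fat subcutaneous fat and from -7.00 to -4.71 in High fat visceral fat, while the detection limits of the Control arrays lay between -7.34 and -4.91. Many Control arrays could therefore not have shown such a level. In subcutaneous fat bta-miR-24 was at least 1.51-fold higher in the High fat diet, a fold that was not tested. In visceral fat no fold is given because the bound was under 1. Bta-miR-24 passed the filter for testing only through its High fat arrays, and every Control array stood at the common floor. The direction of its fitted log2 differences, 1.31 and 1.14, was thus fixed in advance. Their limma calls are no support for a difference. With normexp correction the signs turned, to -1.92 and -1.53. The part of its offset of 50 in this dim entry was not tested.

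Across the clusters, 5 of 6 miRNAs were called higher in High fat subcutaneous fat, where 41.6% of all tested miRNAs were called higher, and 1 of 6 was called lower (34.3% of all). In visceral fat 5 of 6 were called higher (42.1% of all) and 0 of 6 lower (29.6% of all), and the sixth, bta-miR-23b-3p, had an unadjusted limma p of 0.722. The 5 called higher in each depot include bta-miR-24, which passed the filter only through its High fat arrays and whose calls rest on the floor. Its calls add no support, and the medians that follow include it. The median log2 difference of the 6 was 1.10 in subcutaneous fat against 0.10 over all tested miRNAs, and 1.13 against 0.17 in visceral fat. Of the 6 pairs compared on the same array, 5 differed between diets in each depot, where 82.2% of all 4104 pairs did so in subcutaneous fat and 79.3% in visceral fat. A change between diets was thus common over the whole array, and the median size over all pairs was 1.70 and 1.77.

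**Figure D3:**
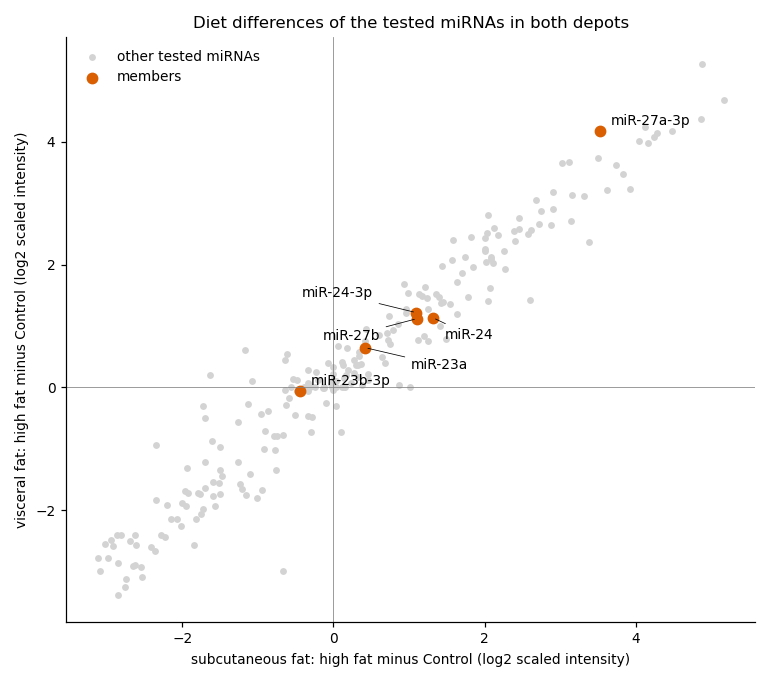
Diet difference (High fat minus Control, log2 scaled intensity) of 233 tested miRNAs in subcutaneous fat, horizontal axis, and in visceral fat, vertical axis. The 6 cluster miRNAs are named. MiR-27a-3p stood at 3.53 and 4.17 with undetected Control arrays at the common floor. With them at their own limits it was 3.25 and 3.29. MiR-24-3p and miR-27b lay side by side near 1.1, and miR-23b-3p was at -0.44 and -0.06.

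The direction of most single diet differences depended on how arrays were scaled. The 91 miRNAs on all arrays had a median diet difference of -0.91 in subcutaneous and -0.80 in visceral fat with the scaling used here, of 2.26 and 2.08 with the labelling spike-ins, and of -2.30 and -1.86 in the deposited normalized values. Relative to that median the cluster miRNAs detected on all arrays were higher in the High fat diet, by 0.46 for bta-miR-23b-3p, 1.32 for bta-miR-23a, 2.01 for bta-miR-24-3p and 2.02 for bta-miR-27b in subcutaneous fat. The corresponding values in visceral fat were 0.74, 1.44, 2.01 and 1.92. Bta-miR-27a-3p was higher under every one of the 8 scalings, from 2.08 with the deposited values to 6.43 with the spike-ins in subcutaneous fat and from 3.11 to 6.33 in visceral fat, all above the values of 1.17 and 0.54 that normexp background correction gave. Bta-miR-23b-3p ran from -1.84 to 2.72 in subcutaneous fat and from -1.18 to 2.82 in visceral fat. Bta-miR-23a was lower in the High fat diet with the deposited values (-0.98 and -0.42) and the percentile over all 672 miRNAs (-0.82 and -0.48). Bta-miR-24-3p and bta-miR-27b were within 0.30 of 0 under these scalings in both depots. The signs of bta-miR-23a, bta-miR-24-3p and bta-miR-27b turned under these scalings only. Control arrays detected 115 to 176 miRNAs, on most arrays too few for the percentile over all 672 to fall on a detected one. Those Control arrays were left almost unscaled by it. In the deposited values 14 of 32 arrays were not shifted from the unscaled intensities.

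**Figure D4:**
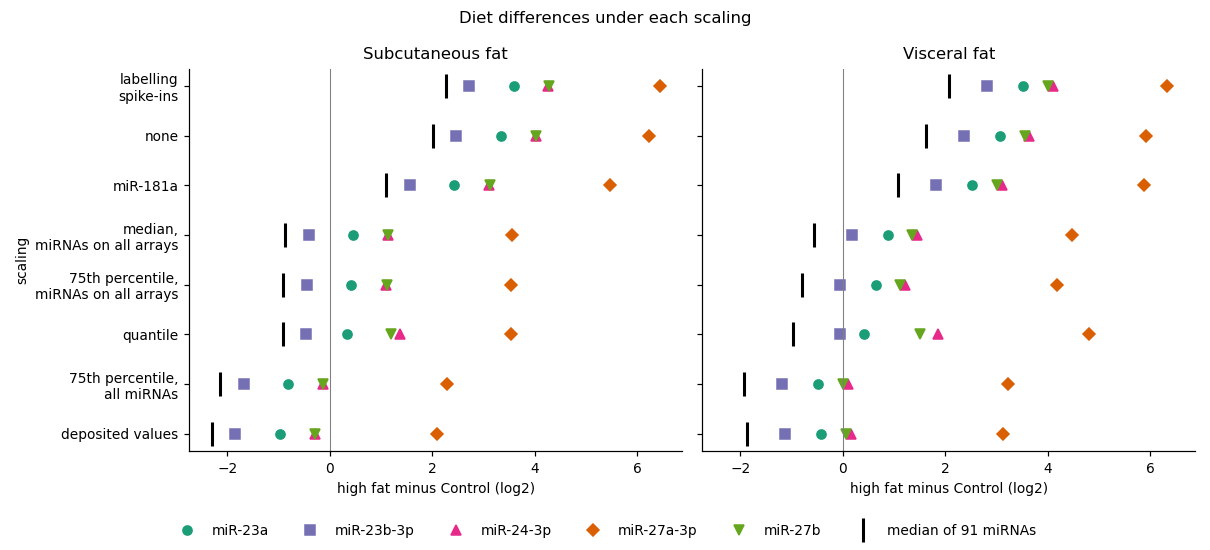
Diet difference (High fat minus Control, log2) of 5 cluster miRNAs under 8 ways of scaling the arrays, in subcutaneous fat (left) and visceral fat (right). The vertical bar is the median of the 91 miRNAs detected on all arrays. The order of the miRNAs was nearly the same throughout while the zero line moved across them, and only miR-27a-3p stayed to the right of it in both depots in every case shown.

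Fewer cluster miRNAs were called between depots than between diets. In Control steers, bta-miR-23a was lower in visceral than in subcutaneous fat by a log2 difference of -0.65 (SE 0.167, adjusted p = 0.00656), in 6 of 8 steers. This call ended with the percentile over all miRNAs (-0.74, adjusted p = 0.0843), the labelling spike-ins (-0.87, adjusted p = 0.0728), normexp (-0.35, adjusted p = 0.116) and the methods' t-test with Bonferroni (adjusted p = 0.989). Bta-miR-24-3p differed by -0.33 (SE 0.117, adjusted p = 0.0444), also in 6 of 8 steers, and this call was lost with the steer as a replicate block (adjusted p = 0.136) or without any 1 of 10 arrays (adjusted p up to 0.110). These 2 of 6 were called lower, where 12% of all tested miRNAs were, and 0 of 6 were called higher (6.87% of all). The other 4 did not pass, among them bta-miR-24, which was undetected in both depots, and bta-miR-27b differed by -0.08 (95% interval -0.59 to 0.44).

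In High fat steers limma called 0 of 6 higher (11.6% of all tested miRNAs) and 0 of 6 lower (14.6% of all), with 2 of 6 at an unadjusted p under 0.05. Those were bta-miR-23a with -0.42 (SE 0.167, adjusted p = 0.0624), lower in visceral fat of 7 of 8 steers, and bta-miR-23b-3p with 0.33 (SE 0.153, adjusted p = 0.112), lower in 1 of 8. The methods' t-test, adjusted by Benjamini-Hochberg, called 2 lower. Bta-miR-27a-3p had a difference of -0.64 and was lower in visceral fat of 8 of 8 steers, and the standard error of the shared fit, which holds undetected Control arrays at the floor, was 0.655 (adjusted p = 0.549). It was among the 2 called by the methods' t-test, at an adjusted p of 0.00980.

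Differences on the same array were compared between depots as well. Bta-miR-23a minus bta-miR-23b-3p was lower in visceral fat of 8 of 8 Control steers and of 8 of 8 High fat steers. The difference was -0.59 (95% interval -0.83 to -0.35, exact permutation p = 0.000466, adjusted p = 0.0158) in Control and -0.75 (-0.92 to -0.59, exact permutation p = 0.000155, adjusted p = 0.000927) in High fat steers. Control arrays overlapped between depots and High fat arrays did not. With the steer as a replicate block, the exact sign-flip p was 0.00781 in each diet, the smallest that 8 steers can give, and in Control steers the adjusted p was then 0.111.

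Bta-miR-27a-3p minus bta-miR-27b was lower in visceral fat as well, by -0.58 in High fat steers (-0.84 to -0.33, exact permutation p = 0.000466, adjusted p = 0.00188), in 8 of 8 animals. In Control steers it was -0.61, which did not pass (exact permutation p = 0.0260, adjusted p = 0.1004), and -0.24 on arrays that detected both. Bta-miR-24-3p minus bta-miR-23a was higher in visceral fat, by 0.32 in Control (adjusted exact permutation p = 0.0465, and 0.142 with the steer as a replicate block) and by 0.21 in High fat steers (adjusted exact permutation p = 0.0174), and lower in 1 of 8 steers of each diet, and the Control call was lost without any 1 of 13 arrays (adjusted p up to 0.0864). In High fat steers bta-miR-27b minus bta-miR-23b-3p was lower by -0.40 (adjusted exact permutation p = 0.0350, lost without any 1 of 8 arrays, where it reached 0.0729), in 7 of 8 steers. In all, 2 of 6 pairs were called in Control steers, against 14.7% of all pairs, and 4 of 6 in High fat steers, against 59.3%.

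For bta-miR-23a the group means ran from -0.12 in High fat subcutaneous through -0.54 in High fat visceral and -0.54 in Control subcutaneous to -1.18 in Control visceral fat, and the ranges of the middle groups overlapped. For bta-miR-24-3p they were 1.31, 1.10, 0.21 and -0.12 in the order High fat subcutaneous, High fat visceral, Control subcutaneous and Control visceral, and among these neighbours only High fat visceral and Control subcutaneous fat did not overlap. For bta-miR-27b the means of 0.72 and 0.66 in the High fat depots did not pass the test of their difference, nor did -0.39 and -0.46 in the Control depots. For bta-miR-23b-3p the means were 0.11 and 0.05 in Control subcutaneous and visceral fat, -0.00 in High fat visceral and -0.34 in High fat subcutaneous fat, and neighbouring groups overlapped throughout.

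The High fat minus Control difference was not detectably different between depots. Limma called 0 of 6 for the interaction (1.72% of all tested miRNAs), with 0 of 6 at an unadjusted p under 0.05. The interaction of bta-miR-27b was 0.01 (95% interval -0.72 to 0.74), and that of bta-miR-23b-3p, the lowest p of the 6, was 0.39 (-0.05 to 0.83, unadjusted p = 0.0828, adjusted p = 0.552). Among the 6 pairs 0 were called (0% of all pairs), and the lowest exact permutation p was 0.225.

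Among arrays of the same group, miR-23 and miR-24 varied together, and miR-27b was less like them. The deviation of each array from its group mean was compared over 32 arrays, as a description, because all miRNAs of an array share its RNA, hybridization and scaling. The 3 miRNAs most like bta-miR-23a among the other 90 were bta-miR-24-3p (Pearson r = 0.878, Spearman rho = 0.871), bta-miR-23b-3p (r = 0.820) and bta-miR-99b (r = 0.741). Those most like bta-miR-24-3p were bta-miR-23a (r = 0.878), bta-miR-23b-3p (r = 0.822) and bta-miR-99a (r = 0.791). Bta-miR-23b-3p was most like bta-miR-24-3p, bta-miR-23a and, at r = 0.814, bta-miR-145, a miRNA of smooth muscle and pericytes. The median r over all 4095 pairs was 0.0654. In each diet alone, over 16 arrays, the r of bta-miR-23a with bta-miR-24-3p was 0.866 and 0.912.

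Bta-miR-27b was instead most like bta-miR-29a (r = 0.962, rho = 0.946), bta-miR-497 (r = 0.914) and bta-miR-15a (r = 0.914), and these 3 were all that exceeded 0.9. With bta-miR-23a its r was 0.165, with bta-miR-23b-3p 0.188 and with bta-miR-24-3p 0.428. The r with bta-miR-29a was 0.975 in the Control diet, where bta-miR-27b fell into high and low arrays, and 0.708 in the High fat diet. The r of bta-miR-27b in the Control and the High fat diet was 0.304 and -0.627 with bta-miR-23a, 0.288 and -0.372 with bta-miR-23b-3p, and 0.578 and -0.432 with bta-miR-24-3p. With bta-miR-27a-3p, its paralog of the other cluster, it was 0.679 in the High fat diet. Deviations of bta-miR-27b moved with those of array brightness (log2 of the 75th percentile) at r = 0.699 in the Control diet and 0.354 in the High fat diet, and those of bta-miR-23a at 0.306 and -0.376. Over all 32 arrays the r with brightness was 0.558 for bta-miR-27b, 0.295 for bta-miR-24-3p, 0.118 for bta-miR-23b-3p and 0.0472 for bta-miR-23a. The part of brightness in these likenesses was not tested.

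**Figure D5:**
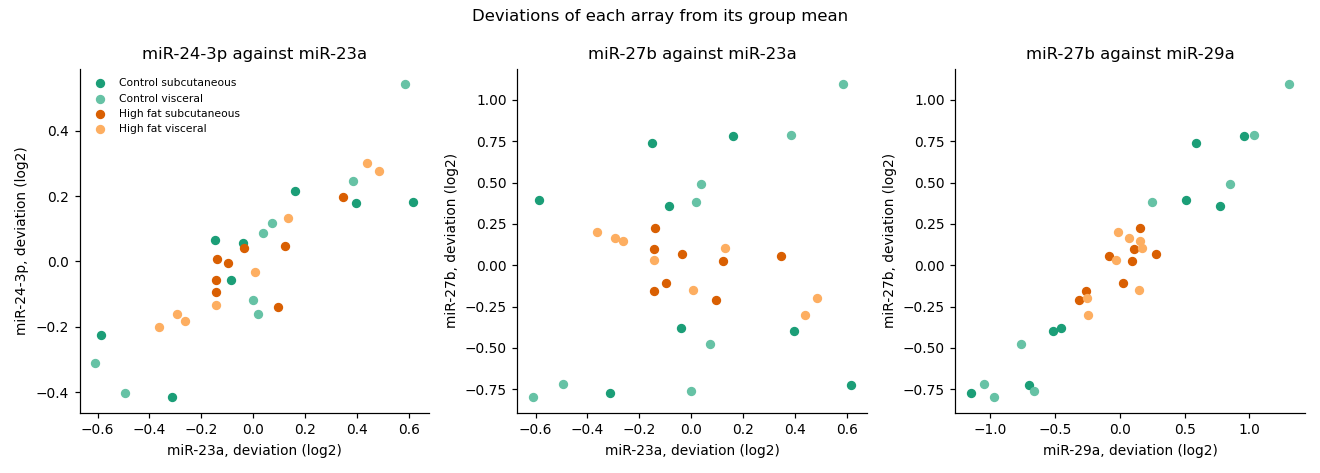
Deviation of each array from its group mean (log2 scaled intensity) for miR-24-3p against miR-23a (left), miR-27b against miR-23a (middle) and miR-27b against miR-29a (right), 32 arrays coloured by group. Over these arrays r was 0.878, 0.165 and 0.962, and the deviations of miR-27b were widest in the Control groups.

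Other miRNAs known from fat cell formation were counted beside the clusters, using lists drawn up from general knowledge with earlier results of these data known. Of 9 others known as brakes on PPARG or early adipogenesis, all tested, 2 were called higher and 3 lower in High fat subcutaneous fat, and 1 higher and 3 lower in High fat visceral fat. The shares of all tested miRNAs were 41.6% called higher and 34.3% called lower in the former depot, and 42.1% and 29.6% in the latter. The brightest of them were bta-let-7b, with log2 differences of -2.75 and -3.12, bta-let-7a, with -1.60 and -1.53, and bta-miR-145, which did not pass with -0.12 and -0.01. The median of the 9 was -0.12 in subcutaneous and -0.01 in visceral fat, so bta-miR-27a-3p and bta-miR-27b lay above it in both depots. They were not alone in this: bta-miR-130a of the same list stood at 3.02 and 3.66, above bta-miR-27b.

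Of 12 tested miRNAs known to favour adipogenesis, 9 were called higher and 1 lower in High fat subcutaneous fat and 11 higher and 0 lower in High fat visceral fat, against the same shares of all tested miRNAs, with medians of 1.34 and 1.33 where all tested miRNAs had 0.10 and 0.17. The brightest were bta-miR-378 (-0.64, adjusted p = 0.00123, and -0.04, which did not pass), bta-miR-103 (0.72 and 0.77, adjusted p = 3.64e-05 and 1.14e-05) and bta-miR-30d (0.29 and 0.37, adjusted p = 0.0467 and 0.0154). Between depots 2 brakes were called higher and 1 lower in visceral fat of Control steers, and 1 higher and 3 lower in that of High fat steers, while 1 and 1 of the miRNAs that favour adipogenesis were called higher and 1 and 2 lower. Over all tested miRNAs 6.87% were higher and 12% lower in visceral fat of Control steers, and 11.6% and 14.6% in that of High fat steers. As with the clusters, the sign of a diet difference in either list holds for the scaling used here.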

How the data were processed

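MiRNA arrays of 32 fat samples, grouped by the diet, depot and steer of their labels, were analysed. The authors deposited Feature Extraction (version 10.7.3.1) intensities, background subtracted and summed over the probes of each miRNA without scaling between arrays, and log2 values that they had scaled to a 75th percentile. In the latter 244 features were matched to miRNAs by value within 1e-04, and they served as an alternative. On 14 of the 32 arrays these deposited log2 values were not shifted from the unscaled ones. The build in the array headers differed from ARS-UCD2.0, so no coordinates are given, and mature sequences were not used here. Of 672 miRNAs with 20 spots each, 0 spots were saturated.

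Intensities were divided by the array's 75th percentile over the 91 miRNAs detected on all arrays, set to a floor of log2 -7.22 and put on a log2 scale. MiRNAs detected on at least 8 arrays and above the floor on some array were tested in limma 3.58.1 (R 4.3.3), with 4 groups in 1 fit, two-sided, at a Benjamini-Hochberg adjusted p under 0.05. Folds of miRNAs not detected on every array set undetected arrays to the lowest intensity detected on that array. For differences between miRNAs of 1 array, groups were compared by exact permutation (two-sided), adjusted over 4104 pairs, with intervals from the same test (Python 3.11.15, numpy 2.4.6). The number of arrays limits the precision. Scripts were tested on simulated data.

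Both depots came from the same steers, but the main limma and exact permutation tests between depots did not pair them. The steer as a replicate block was an alternative. Deviations of the 91 miRNAs correlated in a steer with a median r of -0.269 in the Control and 0.247 in the High fat diet. Steer and position on the slide coincide. Named miRNAs were all members, the 3 miRNAs most alike to each member detected on all arrays, and the 3 brightest of each list, with bta-miR-130a added after seeing the data. Members and lists were chosen with earlier results of these data known. Alternatives were other scalings, normexp background correction with an offset of 50, single spots, other floors and filters, blocks for steer or position, the methods' t-test, and leaving out each array. The brighter probe alone and arrays that detected both miRNAs were added after seeing the data. A search for other miRNAs of the same seed was not done, since it needs sequences.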

Additional observations from a re-analysis of the deposited data

Results flagged for a closer look

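Among 48 sets of 8 values, the 6 tested cluster miRNAs and the 6 pairs in each of 4 groups, 1 held a value far from the other 7. It was bta-miR-27a-3p in Control subcutaneous fat, where the array of steer 405 lay at the floor of -7.22 because the miRNA was not detected there, with a gap to the nearest array of 0.594 of the group's range. By chance, gaps of the size that led to this entry occur in about 1 in 20 sets.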

How the results depend on the processing

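Counts of cluster miRNAs called (of 6) moved with the scaling. Against 5 called higher and 1 lower in High fat subcutaneous fat, the percentile over all miRNAs gave 2 and 2, the deposited values 1 and 2, no scaling, the labelling spike-ins and bta-miR-181a 0 lower, normexp 2 lower, the miRNAs on all arrays alone 3 higher (only 4 of the 6 were then tested), and the methods' t-test (Bonferroni) 2 higher and 0 lower. Against 5 and 0 in High fat visceral fat, the percentile over all miRNAs gave 2 and 1, the deposited values 2 and 1, normexp 3 and 2, the miRNAs on all arrays 3 higher and the Bonferroni t-test 1 higher. In the depot comparison of Control steers, 2 lower became 1 with the median of the 91 miRNAs, no scaling, bta-miR-181a, spot intensities, a floor at an intensity of 1, the deposited values, the steer as a replicate block and the Benjamini-Hochberg t-test, and 0 with the percentile over all miRNAs, the spike-ins, normexp and the Bonferroni t-test. In that of High fat steers, 0 higher became 1 with the median of the 91 and 2 with normexp, and 0 lower became 4 without scaling, 3 with normexp, 2 with bta-miR-181a and the Benjamini-Hochberg t-test, and 1 with quantile normalization, the spike-ins and the miRNAs on all arrays. Pairs called fell from 5 to 3 with normexp in the visceral diet comparison, and in Control depots from 2 to 0 with the steer as a replicate block and to 1 with spot intensities, normexp and the brighter probe.

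Signs turned in these cases. For the High fat minus Control difference, bta-miR-23a stood at -0.82 (subcutaneous) and -0.48 (visceral) with the percentile over all miRNAs and at -0.98 and -0.42 in the deposited values. Bta-miR-23b-3p stood at 2.47 and 2.37 without scaling, 2.72 and 2.82 with spike-ins, and 1.56 and 1.82 with bta-miR-181a. In subcutaneous fat bta-miR-24-3p stood at -0.14 and -0.30, and bta-miR-27b at -0.12 and -0.29, with the percentile over all miRNAs and the deposited values, and bta-miR-27b in visceral fat at -0.0027 with the former. Normexp turned bta-miR-24 to -1.92 and -1.53, and to 0.60 between High fat depots, and bta-miR-27a-3p minus bta-miR-27b in visceral fat to -0.36. The cause was not tested, beyond the shift that each scaling gives to all miRNAs of an array alike. The percentile over all miRNAs left most Control arrays almost unscaled.

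Leaving out 1 array gave 4 to 5 called higher in subcutaneous fat, 1 to 3 called lower between Control depots, 0 to 1 called lower between High fat depots, 1 to 2 pairs between Control depots and 3 to 4 between High fat depots. Bta-miR-24-3p between Control depots lost its call without any 1 of 10 arrays (subcutaneous 111, 209, 211, 308, 410, visceral 108, 111, 209, 307, 308). Bta-miR-24-3p minus bta-miR-23a there did so without any 1 of 13 of the 16 arrays, all but subcutaneous 108 and 307 and visceral 308, and bta-miR-27b minus bta-miR-23b-3p between High fat depots without any subcutaneous array but that of steer 204, or without visceral 204. Bta-miR-23a passed between High fat depots without visceral 204 or 303 (adjusted p down to 0.0371), and bta-miR-27a-3p between Control depots without subcutaneous 405 (adjusted p = 0.0365). Position on the slide as a block changed no count by over 1.5 times, and the replicate block for the steer changed no other call than those given. Signal over background limits bta-miR-24 and bta-miR-27a-3p on the dim Control arrays.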
